A study of Rattus norvegicus with 138 samples.

Results

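The strain difference at 12 wk of age in the NTS, the nucleus of the solitary tract, was examined across all genes, as 6 spontaneously hypertensive rats (SHR) against 3 normotensive Wistar-Kyoto rats (WKY). These 9 libraries were chosen by their labels alone, and they are 9 of the 138 RNA-seq libraries of the study and 9 of its 46 NTS libraries. The study compared inbred female rats of both strains from 8 to 24 wk of age (8, 10, 12, 16, 24) in punches of the NTS, the rostral ventrolateral medulla (RVLM) and the caudal ventrolateral medulla (CVLM), with no drug or surgery stated. Each library is a punch from 1 rat, so it holds every cell type under the punch, and fewer cells of a type cannot be told apart from less RNA per cell. The question that the comparison addresses is which transcripts differ between the strains in this nucleus while hypertension develops.

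The NTS receives the afferent fibers of arterial baroreceptors and chemoreceptors and of the vagus nerve, and it relays them to the CVLM and RVLM, which set sympathetic outflow. It lies in the dorsal medulla beside the fourth ventricle, whose wall is lined by ependymal cells that carry motile cilia, and whose roof holds the choroid plexus, the epithelium that secretes cerebrospinal fluid. A motile cilium beats through dynein arms, radial spokes and a central pair of microtubules, whereas the primary cilium of neurons and glia lacks these and serves as a sensory antenna.

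The 12-wk NTS libraries held 8870131 to 13499441 counts assigned to genes, with a median of 9194198. Levels are given below as CPM, the read counts relative to library size, after scaling by the trimmed mean of M values, and 13793 genes were tested. Markers of the medullary NTS were present in every library. Th and Dbh, the catecholamine synthesis genes of the A2 neurons, averaged 122 and 58.3 CPM in SHR and 138 and 67.9 CPM in WKY, and the caudal Hox gene Hoxb5 averaged 109 and 98.7 CPM. The cerebellar granule cell gene Gabra6 reached at most 5 counts in any library. Cholinergic markers of the adjoining motor nuclei were also present, and Slc5a7, the choline transporter, ranged from 69.3 to 373 CPM in SHR and from 165 to 253 CPM in WKY. None of the 13 tested genes of the NTS identity list and none of the 7 tested genes of the motor neuron list had an adjusted p under 0.05 in edgeR, and 1 and 0 of them had an unadjusted p under 0.05.

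Of the 13793 genes, 167 were called, that is, 1.21% passed an adjusted p of at most 0.01 together with a 2-fold difference (edgeR quasi-likelihood test with Benjamini-Hochberg adjustment). Lower expression in SHR was more frequent, with 116 genes called lower (0.841%) and 51 called higher (0.37%). At an adjusted p under 0.05 without a fold limit, 288 genes were lower (2.09%) and 140 were higher (1.02%). The median log2 fold change over all genes was 0.03. Rise and fall, here and below, mean higher and lower in SHR than in WKY of the same age, not change over time. Deviations of same-numbered rats of the strains correlated at 0.118 to 0.343, with no value for rats of different numbers to set beside it. With the replicate number as a block 86 genes were called (36 higher and 50 lower), of which 80 were among the 167. SHR replicates 4, 5 and 6 have no WKY rat of their number, so they do not enter the strain difference of that fit. Whether a call lost with the block reflects the pairing or the fewer rats cannot be told apart. With WKY replicate 2 left out, 104 genes were called (43 higher and 61 lower), of which 101 were among the 167, and with the 9 libraries alone 33 were higher and 41 lower.

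**Figure D1:**
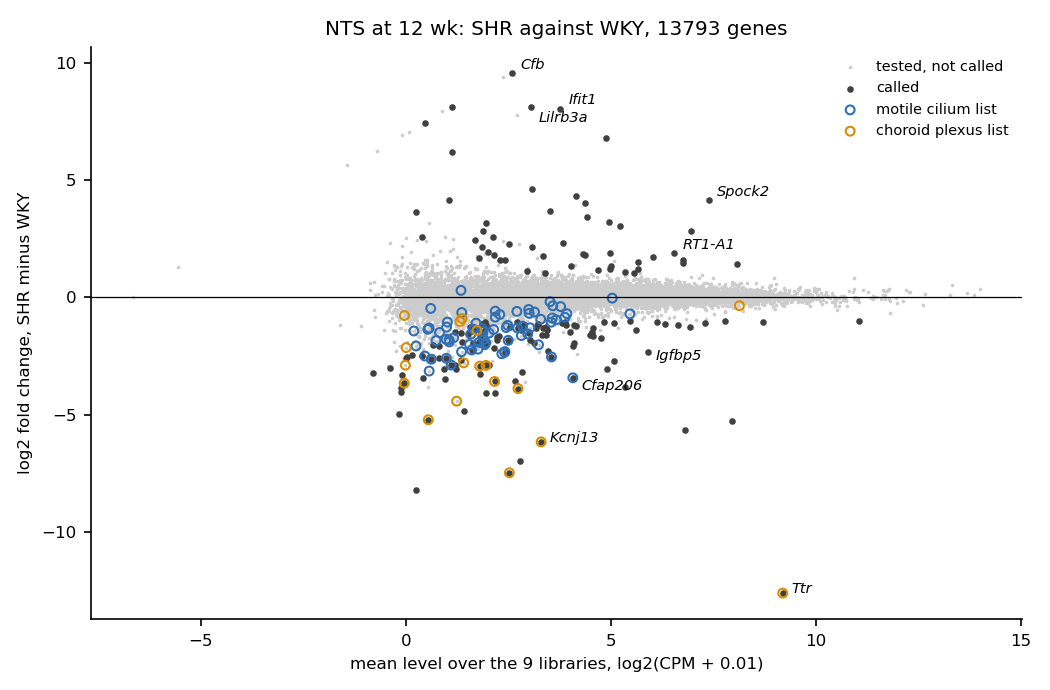
Each point is 1 of 13793 genes, with its mean level over the 9 NTS libraries of 12 wk on the x axis (log2 of CPM plus 0.01) and its log2 fold change, SHR minus WKY, on the y axis. Dark points are the 167 called genes, and rings mark the members of the motile cilium and choroid plexus lists, which lie below 0 with 1 exception of 85 ringed members.

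The transcripts with the largest rises in SHR formed a set of large strain differences that were also present at the other ages, in other rats. Spock2, which encodes the extracellular proteoglycan testican-2, measured 196, 249 and 287 CPM in the lowest, median and highest SHR library and 11.9, 16.0 and 13.3 CPM in the 3 WKY libraries, a log2 fold change of 4.14 ± 0.19 (SE, edgeR adjusted p = 1.8e-20). Ephx2, the soluble epoxide hydrolase that inactivates vasodilator epoxides of arachidonic acid, measured 24.9, 30.1 and 34.5 CPM in SHR against 2.84, 1.45 and 1.29 CPM in WKY (4.02 ± 0.29, adjusted p = 1.1e-13). Every SHR library lay above every WKY library for both genes, and both were called at all 4 other ages. Ephx2 is also on a list of 5 genes that earlier work had linked to SHR, of which 1 was higher and 1 was lower at an adjusted p under 0.05.

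Ifit1, an interferon-induced protein that binds foreign RNA, measured 12.2, 17.8 and 31.1 CPM in the lowest, median and highest SHR library, while the 3 WKY libraries together held 2 counts. The ratio by counts was 312-fold, with a 95% counting interval of 86.2 to 2581. Lilrb3a, a leukocyte immunoglobulin-like receptor, measured 10.4, 12.3 and 14.6 CPM in SHR and 1 count in all of WKY (379-fold by counts, interval 67.8 to 14993). Both belong to multigene families whose members share sequence, so the counts of a single member are uncertain. Cd4, the T-cell co-receptor, rose from 0.425 to 1.14 CPM in WKY to 3.70 to 7.23 CPM in SHR (2.85 ± 0.44, adjusted p = 1.9e-05). Pxmp4, a peroxisomal membrane protein, rose by 3.42 ± 0.22, Tomm40l, a protein of the mitochondrial import pore, by 3.04 ± 0.18, Tmem94 by 3.19 ± 0.39 and the apolipoprotein Apoa5 by 3.16 ± 0.44, each with adjusted p at or below 1.9e-06. Of the genes named by clone or locus only, AABR07064061.1 and LOC100360940 rose by 6.80 ± 0.62 and 4.64 ± 0.43 (adjusted p = 7.9e-11 for each).

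Falls of the same kind were led by 2 locus-named genes. AABR07052523.1 measured 10.0, 18.4 and 24.9 CPM in the lowest, median and highest SHR library against 764, 691 and 654 CPM in WKY, a log2 fold change of -5.27 ± 0.20 (adjusted p = 5.5e-23). RGD1563294 measured 2.23, 7.31 and 9.14 CPM in SHR against 341, 317 and 311 CPM in WKY (-5.63 ± 0.26, adjusted p = 8.7e-20). Tstd1, a thiosulfate sulfurtransferase, and Grifin, a galectin-related protein, fell by 4.09 ± 0.43 and 4.06 ± 0.50 on the log2 scale (adjusted p = 3.6e-09 and 1.5e-07). No count of the alpha-globin gene Hba-a3 was found in any SHR library, while WKY libraries held 4.32, 3.83 and 2.39 CPM, which makes it at least 69.1-fold lower in SHR (floor of 3 counts over the group). The summed level of the hemoglobin list did not follow it, at 369 to 1071 CPM in SHR and 606 to 896 CPM in WKY, and the other 4 tested globin genes did not pass an adjusted p of 0.05.

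Cfb, complement factor B, was the called gene with the highest fitted log2 fold change, 9.56 ± 2.06 (adjusted p = 0.0035), but the count table holds Cfb under 2 identifiers. Under ENSRNOG00000000419 the 3 WKY libraries held no count and the SHR libraries held 1.93, 6.48 and 23.2 CPM at their lowest, median and highest, at least 83.5-fold more. Under ENSRNOG00000051158 the WKY libraries held 14.9, 15.6 and 19.8 CPM and the SHR libraries 0 to 18.1 CPM (adjusted p = 0.84). The sum of the entries was 17.5, 21.8 and 23.6 CPM at the lowest, median and highest in SHR and 14.9, 15.6 and 19.8 CPM in WKY, so the groups overlapped (log2 ratio of means 0.35, exact two-sided permutation p = 0.0357 over 84 splits of the rats). With WKY replicate 2 left out, or with the replicate block, the call of the ENSRNOG00000000419 entry was lost (adjusted p = 0.040 and 0.045), as it was without WKY replicate 1 or 3.

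Of the 167 called genes, 79 (47.3%) were also called in the same direction at all 4 other ages, where the share of genes called was 1.22% (8 wk), 1.25% (10 wk), 0.805% (16 wk) and 0.986% (24 wk). Genes called higher persisted in 36 of 51 cases and genes called lower in 43 of 116. The remaining genes called lower included 51 that were called at no other age, and 2 genes called higher were of that kind. Among those 51, the level was highest in WKY replicate 2 for 43, in WKY replicate 1 for 5 and in WKY replicate 3 for 3. Among the 43 persistent falls the split was 17, 14 and 12. The difference between the strain effect at 12 wk and its mean at the other ages was tested for each gene, and 0 genes had an adjusted p under 0.05 (edgeR, lowest adjusted p 0.34), while 647 had an unadjusted p under 0.05, which is 4.69% of the genes. DESeq2 gave 2 genes and limma 1. A call at 12 wk and no other age is therefore not a tested difference between ages. The 647 genes included 53 of the 67 tested motile cilium genes, and the median difference over that list was -1.227. They also included 15 of the 18 tested choroid plexus genes, where the median difference over the list was -2.385. Genes of a list were measured in the same few rats, so these counts are not independent.

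**Figure D2:**
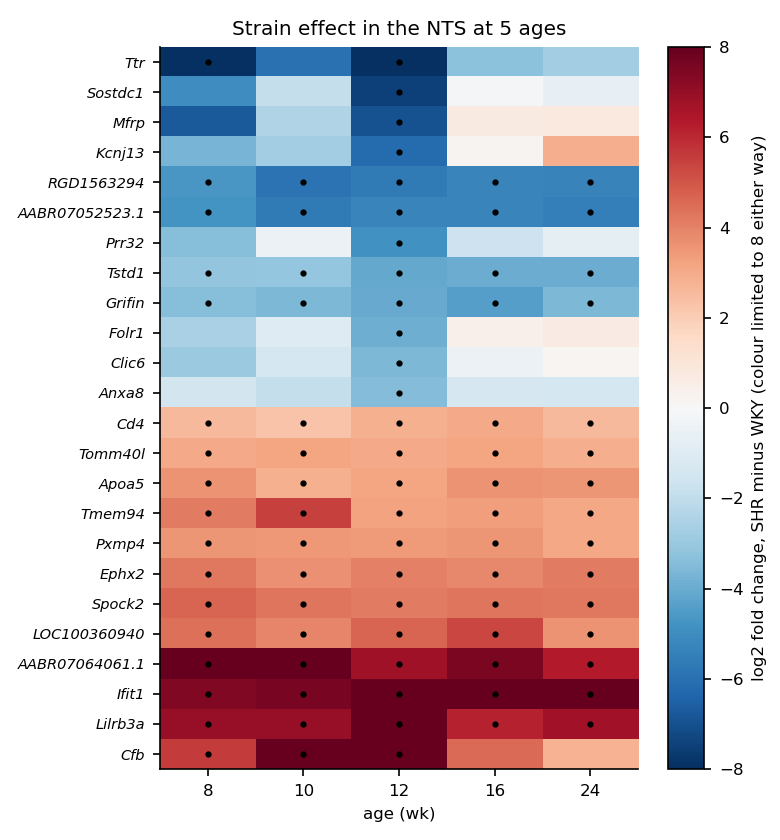
Rows are the 24 called genes with the largest changes at 12 wk by the naming rule, columns are ages in wk, and color gives the log2 fold change, SHR minus WKY, in the NTS. A dot marks a call (adjusted p at most 0.01 and 2-fold). The rises of Spock2, Ephx2 and Pxmp4 carry a dot at every age, while Sostdc1, Kcnj13 and Folr1 carry a dot at 12 wk only.

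Choroid plexus genes were among the largest falls, and their level differed greatly between the WKY rats. Of 18 tested members of the choroid plexus list, 12 were lower with an adjusted p under 0.05, against 2.09% of all genes. Of the 18, 9 were called lower, against 0.841% of all genes. The median log2 fold change was -2.91 against 0.03 for all genes. Ttr, the thyroid hormone and retinol carrier that choroid plexus secretes in bulk, measured 0.341, 4437 and 802 CPM in WKY replicates 1, 2 and 3. The 6 SHR libraries held 0 to 0.408 CPM, so WKY replicate 1 lay within the SHR range and the other WKY rats lay far above it (log2 fold change -12.60 ± 1.99, adjusted p = 2.9e-05).

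WKY replicate 2 was also the highest library for other choroid plexus genes. Kcnj13, an inward rectifier potassium channel of that epithelium, measured 0.114, 73.0 and 12.7 CPM in WKY replicates 1, 2 and 3 and 0 to 1.23 CPM in SHR. Sostdc1, a secreted antagonist of BMP and Wnt signaling, measured 0.227, 46.2 and 4.57 CPM against 0 to 0.204 CPM, and Folr1, the folate receptor, measured 6.94, 36.6 and 8.95 CPM against 0.102 to 2.52 CPM. Steap1, a membrane protein of the STEAP family, measured 1.25, 5.02 and 1.19 CPM in WKY replicates 1, 2 and 3 and 0 to 0.339 CPM in SHR, so every WKY library lay above every SHR library. For Ttr, Kcnj13 and Mfrp, a frizzled-related membrane protein outside the list, WKY replicate 1 overlapped with SHR, while for Folr1 the groups did not overlap. The homeobox gene Otx2 had no count in 8 of the 9 libraries.

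The summed level of the choroid plexus list was 207 to 340 CPM in SHR and 194, 5365 and 1081 CPM in WKY, and Enpp2, which oligodendrocytes also express, made up 188 to 329 CPM of it in SHR. In the 15 WKY rats of other ages the sum ranged from 201 to 2745 CPM and in the 22 SHR of other ages from 195 to 373 CPM. Ttr exceeded the highest of all 28 SHR libraries in 4 of those 15 WKY libraries, up to 1907 CPM in an 8-wk rat. With WKY replicate 2 left out, 2 of the 18 genes were lower with an adjusted p under 0.05, and with WKY replicates 2 and 3 left out 0 were (0 of 18 by edgeR, median log2 fold change -0.29). With the replicate block 4 were lower, and the calls of Kcnj13 (adjusted p = 0.43), Sostdc1 (0.059), Folr1 (0.24), Clic6 (0.084), Calml4 (0.085), Kcne2 (0.011) and Steap1 (0.017) were lost, while that of Ttr (0.0059) was kept. The part of choroid plexus tissue in the punches was not tested.

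**Figure D3:**
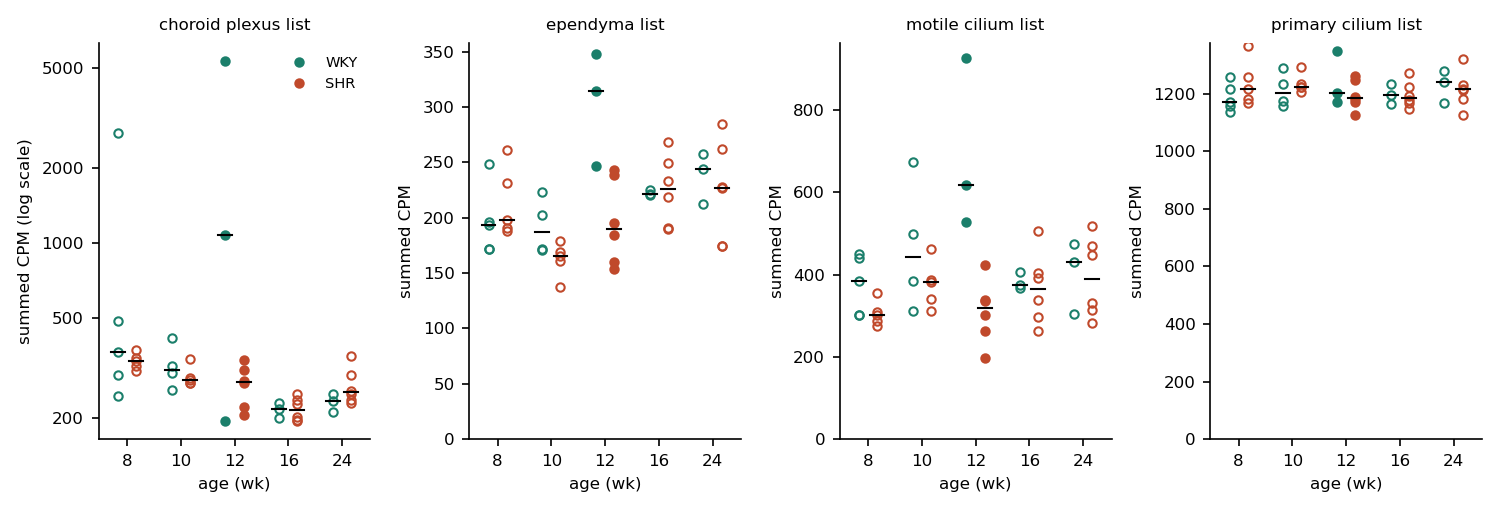
Each point is 1 NTS library, with age on the x axis and the summed level of a gene list on the y axis (CPM; log scale for the choroid plexus list). Filled points are the 12-wk rats and bars are group medians. At 12 wk the choroid plexus sum was 194, 5365 and 1081 CPM in WKY, and every WKY rat lay above every SHR for the ependyma and motile cilium lists but not for the primary cilium list.

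Genes of the motile cilium were lower together in SHR than in WKY at 12 wk. Of 67 tested members, 36 were lower and 0 were higher with an adjusted p under 0.05, against 2.09% and 1.02% of all genes. Of the 67, 12 were called lower, against 0.841% of all genes. A negative log2 fold change was found in 66, against 6195 of all 13793 genes, and the median was -1.37. In 38 of the 67 the lowest WKY library lay above the highest SHR library, which held for 474 of all genes tested (3.44%). The summed level was 617, 928 and 528 CPM in WKY replicates 1, 2 and 3 and 198 to 423 CPM in SHR. At the other ages the WKY sums spanned 301 to 673 CPM and the SHR sums 264 to 518 CPM. By contrast, 0 of 27 tested genes of the primary cilium and intraflagellar transport list passed in either direction by edgeR (4 at an unadjusted p under 0.05), with a median of -0.08 and sums of 1171 to 1348 CPM in WKY and 1128 to 1263 CPM in SHR.

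Cfap206, a protein at the base of the radial spokes, was the cilium gene with the lowest adjusted p. It measured 42.0, 46.2 and 39.3 CPM in WKY and 1.69, 3.56 and 7.78 CPM in the lowest, median and highest SHR library (log2 fold change -3.43 ± 0.29, adjusted p = 6.3e-12). It was the only called member of the list that was called at the other ages, where the 15 WKY libraries held 25.8 to 47.6 CPM, above all 28 SHR libraries of the 5 ages, 12 wk included, at 1.69 to 10.0 CPM. The other 11 called members were called at 12 wk and at no other age. Dynlrb2, a light chain of axonemal and cytoplasmic dyneins, measured 35.7, 27.03 and 15.4 CPM in WKY against 0.678, 4.46 and 9.43 CPM in SHR (-2.54 ± 0.54, adjusted p = 0.0023). Its 15 WKY libraries of other ages held 1.99 to 12.1 CPM, and its 28 SHR libraries of the 5 ages 0.678 to 11.5 CPM. Spag8, a sperm flagellum protein, measured 9.67, 17.2 and 7.36 CPM in WKY against 0.339, 2.42 and 3.51 CPM in SHR (-2.34 ± 0.45, adjusted p = 0.00060).

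Several structural parts of the axoneme were represented among the called genes. Drc7 of the nexin-dynein regulatory complex fell by 2.88 ± 0.61 on the log2 scale, Wdr66, a radial spoke protein, by 2.596 ± 0.54 and Wdr63, an inner dynein arm subunit, by 1.83 ± 0.38, with adjusted p of 0.0021, 0.0016 and 0.0018. The tektins Tekt1, Tekt2, Tekt3 and Tekt4, filaments within the doublet microtubules, were named after their values were seen and had log2 fold changes of -0.96, -2.02, -2.63 and -1.37 with adjusted p of 0.010, 0.017, 0.0096 and 0.036. With WKY replicate 2 left out 4 of the 67 were lower with an adjusted p under 0.05, with the replicate block 4 and with the 9 libraries alone 5, while the medians were -0.95, -1.16 and -1.38. The block removed the calls of Dynlrb2 (adjusted p = 0.094), Spag8 (0.11), Drc7 (0.11), Wdr66 (0.046) and Wdr63 (0.20), and it kept that of Cfap206 (3.0e-06).

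Genes of the ependyma list, which shares Dynlrb2 with the cilium list, were lower in part. Of 8 tested members of the ependyma list, 4 were lower with an adjusted p under 0.05, against 2.09% of all genes. All 8 log2 fold changes were negative and the median was -1.71. With the block, or with the 9 libraries alone, 1 of the 8 was lower. Pltp, Rarres2 and Enkur did not pass (log2 fold changes -0.31, -0.52 and -0.88, edgeR adjusted p = 0.40, 0.32 and 0.076). The summed level was 315, 348 and 247 CPM in WKY and 153 to 243 CPM in SHR, where Pltp made up 127 to 191 CPM of it. Ccdc153 measured 17.6, 22.9 and 12.3 CPM in WKY against 0.226, 1.72 and 4.93 CPM in SHR (-3.20 ± 0.68, adjusted p = 0.0023). Fam216b fell by 3.06 ± 0.70 (adjusted p = 0.0050), and its call and that of Ccdc153 were lost with the block (0.26 and 0.024). Of the 14 tested leptomeningeal genes, 2 were lower, Fmod and Igf2 (0 with the block or without WKY replicate 2 in edgeR), and summed levels were 184, 248 and 158 CPM in WKY and 105 to 179 CPM in SHR. The cilium, ependyma and leptomeninges sums were thus highest in the same library as the choroid plexus sum, WKY replicate 2, and whether the amount of ventricular wall in the punch contributed was not tested.

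Since the cilium genes moved together, their promoters were searched for the X-box core GTTGCC, part of the motif bound by RFX factors, which drive ciliary genes in many animals. Both strands were searched. Promoter sequences of 300 bases, from 250 before to 50 after the gene start, came from RefSeq on the rat assembly GRCr8, whereas the counts were made on rn6, and 54 of the 67 motile cilium genes had one. The core occurred in 19 of these 54 promoters (35.2%), in 11 of the 28 available promoters of the members that were lower (39.3%), and in 12.8% of the 10539 promoters of tested genes. It also occurred in 9 of the 21 promoters of the primary cilium list (42.9%), whose genes did not pass the test, and in 0 of the 12 of the choroid plexus list. The forkhead core GTAAACA, also sought on both strands, occurred in 4 of the 54 (7.41%) and in 2.35% of tested genes. Such a match is a description of the letters and not a binding site.

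Of the 10 called motile cilium genes with a promoter sequence, 3 held the X-box core, and these are shown 5′ to 3′ on the strand of the gene, with the core in capitals. That of Spag8 lies at chr5:62699615-62699914 on the minus strand. Its core is on the strand opposite to the gene, so the capitals read GGCAAC, the reverse complement. The capitals begin 5 bases before the gene start. That of Capsl, which encodes a calcium-binding calcyphosine-like protein (log2 fold change -1.94 ± 0.43, adjusted p = 0.0039), lies at chr2:60121912-60122211 on the plus strand with its core 191 bases before the start. That of Mlf1 (-1.92 ± 0.45, adjusted p = 0.0068) lies at chr2:153958341-153958640 on the plus strand with its core 151 bases before the start.
Spag8: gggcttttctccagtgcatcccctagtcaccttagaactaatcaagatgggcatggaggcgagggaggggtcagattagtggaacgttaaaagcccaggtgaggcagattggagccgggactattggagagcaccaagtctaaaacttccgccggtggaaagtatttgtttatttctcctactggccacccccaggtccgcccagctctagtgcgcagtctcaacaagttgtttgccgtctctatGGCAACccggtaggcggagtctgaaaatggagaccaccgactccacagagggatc
Capsl: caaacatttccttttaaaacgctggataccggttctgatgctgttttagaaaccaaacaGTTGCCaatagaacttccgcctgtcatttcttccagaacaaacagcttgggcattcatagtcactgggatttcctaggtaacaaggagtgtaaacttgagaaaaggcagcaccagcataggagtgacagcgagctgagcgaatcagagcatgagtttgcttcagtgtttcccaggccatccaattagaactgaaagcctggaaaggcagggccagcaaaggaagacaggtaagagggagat
Mlf1: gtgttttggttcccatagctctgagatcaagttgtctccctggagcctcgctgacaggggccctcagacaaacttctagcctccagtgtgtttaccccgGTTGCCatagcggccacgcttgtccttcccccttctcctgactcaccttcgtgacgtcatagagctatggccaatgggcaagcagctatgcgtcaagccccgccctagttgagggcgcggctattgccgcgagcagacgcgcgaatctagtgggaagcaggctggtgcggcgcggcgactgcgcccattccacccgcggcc

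Immune genes were divided between large stable differences and smaller falls. In the major histocompatibility complex (MHC) list, 2 of 26 tested genes were higher and 6 were lower with an adjusted p under 0.05. The shares over all genes were 1.02% and 2.09%. The median log2 fold change of the list was -0.49. With the block 1 was higher and 3 were lower, and without WKY replicate 2 the counts were 2 and 3. RT1-A1, a classical class I chain, measured 109, 123 and 144 CPM in the lowest, median and highest SHR library and 31.8, 34.9 and 32.3 CPM in WKY (1.90 ± 0.14, adjusted p = 4.2e-14). Its neighbor RT1-A2 measured 2.16, 2.39 and 4.08 CPM in SHR and 8.30, 8.50 and 8.85 CPM in WKY (-1.69 ± 0.24, adjusted p = 2.7e-06). RT1-N2, a nonclassical chain, fell by 1.89 ± 0.36 on the log2 scale (adjusted p = 0.00056). The 3 were called at all 5 ages in the same directions, and because class I genes are near copies of each other their split of reads is uncertain. With the block, the adjusted p of RT1-A2 and RT1-N2 was 0.015 and 0.018.

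In the complement list, 5 of 28 tested entries were lower and 1, the Cfb entry above, was higher with an adjusted p under 0.05. The shares over all genes were 2.09% and 1.02%. The median over the list was -0.24, with 10 positive signs. With the block, or without WKY replicate 2, 3 were lower. C1s and C1r, the proteases of the C1 complex, which lie next to each other in the genome, measured 10.0, 12.2 and 15.3 CPM and 8.92, 10.1 and 13.5 CPM at the lowest, median and highest in SHR. In WKY, C1s measured 22.9, 30.9 and 28.9 CPM and C1r 18.1, 27.03 and 22.6 CPM, with no overlap for either (log2 fold changes -1.19 ± 0.14 and -1.06 ± 0.16, adjusted p = 8.9e-08 and 1.6e-05). C4a fell by 1.93 ± 0.34 (adjusted p = 0.00019) and Serping1, the inhibitor of C1, by 1.51 ± 0.36 (adjusted p = 0.0090). The calls of C1s and C1r were kept with the block, and those of C4a (0.024) and Serping1 (0.058) were lost.

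Of 34 tested interferon-stimulated genes, 7 were lower and 1, Ifit1, was higher with an adjusted p under 0.05, against 2.09% and 1.02% of all genes. A negative sign was found in 30 (median -0.63), against 6195 of all 13793 genes. Ifi44l measured 0 to 0.339 CPM in SHR and 1.93, 3.49 and 1.89 CPM in WKY (-4.04 ± 0.61, adjusted p = 9.1e-06) and was called at all ages. Ddx58 and Isg15 were named after their values were seen. Ddx58, the RNA sensor RIG-I, measured 5.43 to 8.47 CPM in SHR and 11.5, 13.3 and 12.6 CPM in WKY (-0.77 ± 0.16, adjusted p = 0.0020). Isg15, the ubiquitin-like modifier, measured 8.13 to 16.7 CPM in SHR and 18.3, 30.8 and 36.6 CPM in WKY (-1.14 ± 0.31, adjusted p = 0.026). With WKY replicate 2 left out, 2 of the 34 were lower, and with the block 3 were. None of the 12 tested microglial genes passed the adjusted p of 0.05 by edgeR, and 2 had an unadjusted p under 0.05.

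**Figure D4:**
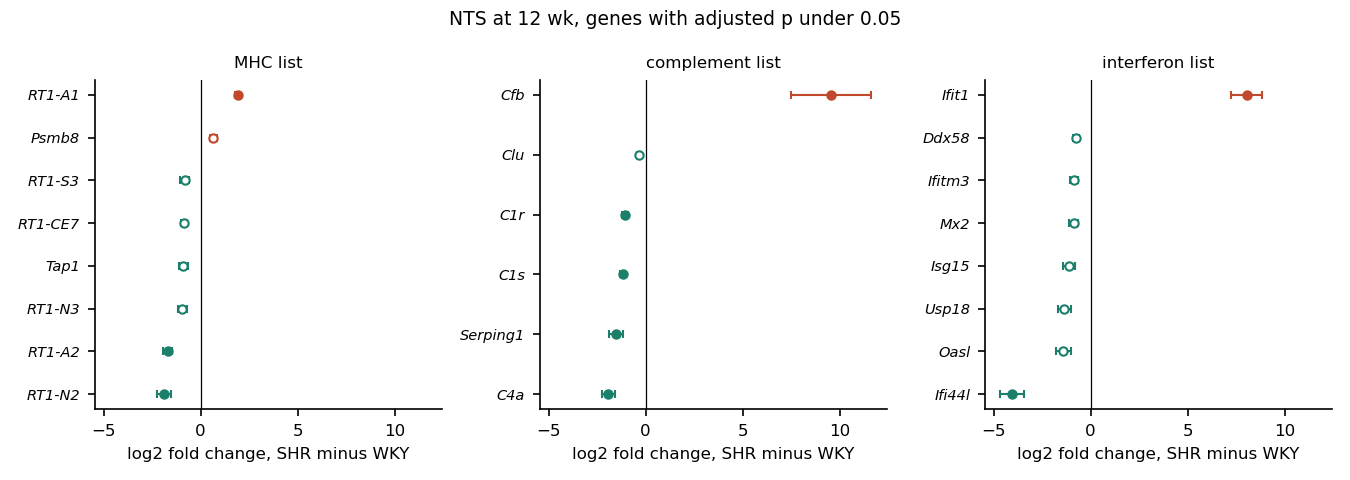
Points are genes of the MHC, complement and interferon lists with an adjusted p under 0.05 in the 12-wk NTS, bars are standard errors, and the x axis is the log2 fold change, SHR minus WKY. Filled points were called, and RT1-A1, Cfb (1 of its 2 entries) and Ifit1 stand on the positive side, while most other members lie between -2 and 0.

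Peptide and transmitter genes were read at an adjusted p under 0.05, which 2.09% of all genes passed as lower and 1.02% as higher. Of 33 tested neuropeptide genes, 1 was lower, Hcrt, the precursor of the orexins, whose neurons lie in the hypothalamus. It measured 22.5, 22.8 and 12.4 CPM in WKY and 0, 1.21 and 3.73 CPM in the lowest, median and highest SHR library (-3.63 ± 0.92, adjusted p = 0.016, and 0.077 with the block). Its WKY libraries of other ages ranged from 0 to 13.01 CPM.

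Of 43 tested peptide receptors, 2 were higher and 1 was lower. Calcrl, the receptor core for calcitonin gene-related peptide and adrenomedullin, measured 32.2, 51.2 and 63.2 CPM in the lowest, median and highest SHR library and 18.3, 27.9 and 24.8 CPM in WKY (1.06 ± 0.23, adjusted p = 0.0031). Oprk1, the kappa opioid receptor, measured 12.2, 19.2 and 23.4 CPM in SHR and 6.26, 11.0 and 11.8 CPM in WKY (0.93 ± 0.20, adjusted p = 0.0033). Tacr3, the neurokinin B receptor, measured 15.8, 23.2 and 36.4 CPM in SHR and 57.3, 57.5 and 62.7 CPM in WKY (-1.30 ± 0.33, adjusted p = 0.015). The groups did not overlap for these receptors, and with the block their adjusted p was 0.11, 0.052 and 0.058.

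Cacng5, an auxiliary subunit of AMPA receptors, measured 8.92, 9.83 and 12.6 CPM in the lowest, median and highest SHR library and 19.9, 34.6 and 29.6 CPM in WKY (-1.47 ± 0.22, adjusted p = 6.0e-06). Kcnip3, which binds A-type potassium channels, measured 9.87, 11.5 and 17.04 CPM in SHR and 29.6, 30.1 and 25.6 CPM in WKY (-1.21 ± 0.16, adjusted p = 1.1e-06). Both were called at every age and kept their call with the block. Grm3, a metabotropic glutamate receptor, was 0.53 ± 0.14 higher, and Abat, which degrades GABA, was 0.46 ± 0.12 lower on the log2 scale, with adjusted p of 0.023 and 0.024, neither of which stayed under 0.05 with the block (0.15 and 0.35). In the lists of catecholamine synthesis (12 tested), acetylcholine signaling (14), the renin-angiotensin system (12), calcium channels (25), vesicle release (31), immediate early genes (14), glucocorticoid response (15) and oxidative phosphorylation (59), 0 genes passed in edgeR. At an unadjusted p under 0.05 the counts in these lists were 0, 0, 3, 3, 4, 0, 2 and 0, in the same order. With a median standard error of 0.21 on the log2 scale, small differences could not be detected in this design.

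Insulin and growth factor genes held 3 lower of 13 tested, and 1 with the block or without WKY replicate 2. The share of all genes lower at an adjusted p under 0.05 was 2.09%. Insr, the insulin receptor, measured 6.03, 6.89 and 8.37 CPM in the lowest, median and highest SHR library and 20.0, 18.7 and 16.0 CPM in WKY (-1.38 ± 0.20, adjusted p = 5.8e-06), was called at all ages and kept its call with the block. Igfbp5, a secreted binding protein of insulin-like growth factors, measured 16.9, 24.7 and 35.1 CPM in SHR and 128, 171 and 83.7 CPM in WKY (-2.32 ± 0.55, adjusted p = 0.0085, and 0.14 with the block). At the other ages Igfbp5 ranged from 13.2 to 137 CPM in WKY, so it also varied within that strain, and its call was lost when any 1 of the 9 libraries was left out. S100b, a calcium-binding protein of astrocytes, fell from 3263, 3234 and 2968 CPM in WKY to 1398 to 1953 CPM in SHR (-1.004 ± 0.10, adjusted p = 8.7e-10), and it was the 1 of 11 astrocyte markers that passed. Rpl30, a ribosomal protein gene, was 1.35 ± 0.29 higher (adjusted p = 0.0026, and 0.029 with the block), while the other 75 tested ribosomal entries did not pass.

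**Figure D5:**
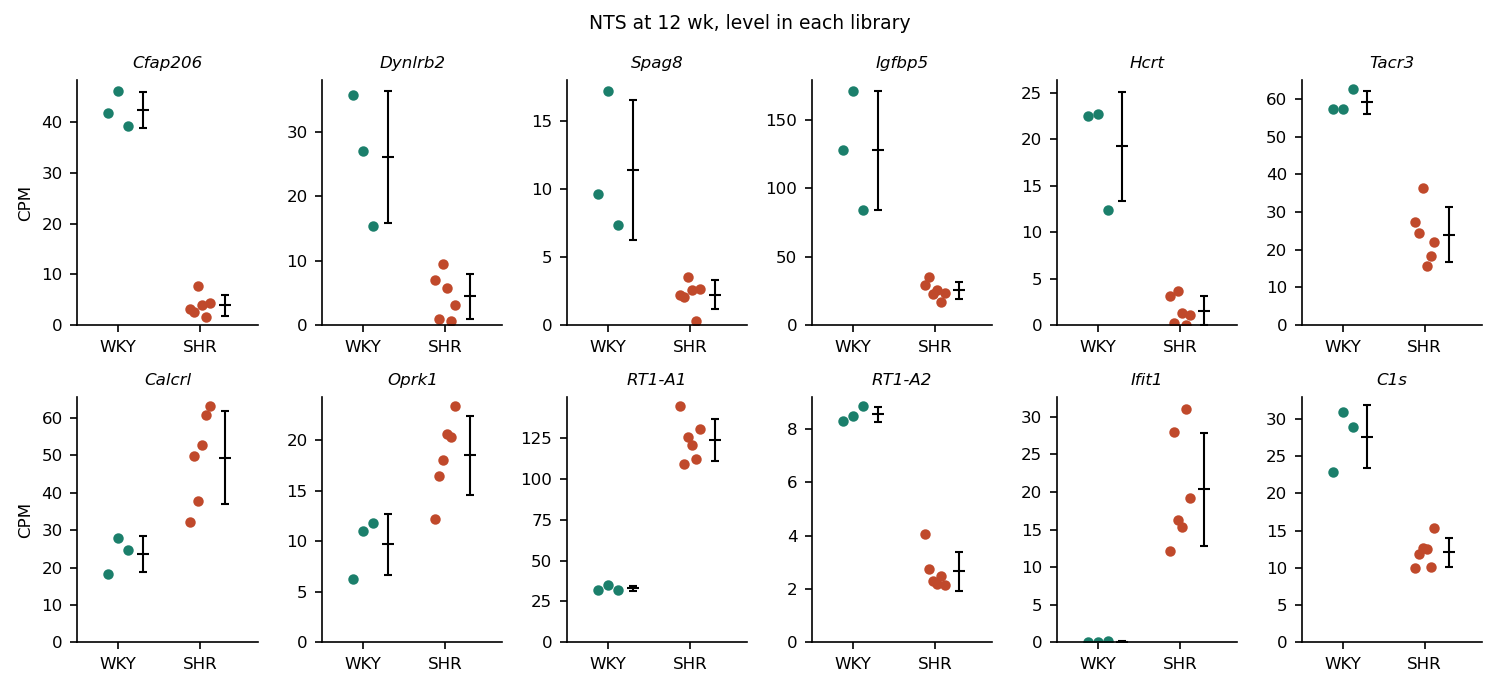
Each panel shows the level of 1 gene in CPM in the 3 WKY and 6 SHR NTS libraries of 12 wk, with the mean and SD beside the points. The 12 genes were picked among those with an adjusted p under 0.05, so the lack of overlap in every panel is no separate result. Over all 13793 genes, every WKY library lay above every SHR library for 474 and below for 312. The SHR points lie lower for Cfap206, Tacr3 and C1s and higher for Calcrl, Oprk1, RT1-A1 and Ifit1.

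The same rats were punched in the CVLM and RVLM, where 0.992% and 0.962% of genes were called at 12 wk. Of the 51 genes called higher in the NTS, 39 were called higher in both other regions, and of the 116 called lower, 42 were called lower in both and 59 in neither, but 36 of the 116 were below the expression filter in at least 1 of those regions and could not be called there. The strain effect itself differed between the NTS and the CVLM for 9 of 14043 genes (0.0641%) and between the NTS and the RVLM for 33 (0.235%) at an adjusted p under 0.05, in an edgeR fit with the rat as a block. That fit held all ages and every gene above the expression filter in at least 1 region. In it, 2 CVLM libraries titled 8 wk carry an age label of 10 wk, while the 12-wk labels do not conflict. Of those 33 differences, 27 were more negative in the NTS. With only the 27 libraries of 12 wk in the fit, the counts were 3 and 14, and in that fit without WKY replicate 2 they were 2 and 0.

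Igfbp5 differed from both other regions. In the CVLM it measured 39.3 to 123 CPM in SHR and 22.0, 36.1 and 42.2 CPM in WKY, a rise of 1.31 ± 0.27, so the strain effect was 3.64 ± 0.57 lower in the NTS (adjusted p = 9.3e-05), and it was 2.69 ± 0.59 lower than in the RVLM (adjusted p = 0.021). Ttr in the CVLM of the same WKY rats measured 0.108, 185 and 5.13 CPM, in the same order as in the NTS. Its strain effect in the NTS differed from that in the RVLM (edgeR adjusted p = 0.0012), where Ttr was below the expression filter. C1s and C1r were lower in the CVLM too, and their strain effects in the NTS were 1.35 and 1.08 lower than in the RVLM (adjusted p = 0.0060 and 0.021). Cfap206 went the other way, with a strain effect of -6.50 ± 0.54 in the CVLM and -6.18 ± 0.48 in the RVLM, larger than in the NTS (adjusted p = 0.011 and 0.021). Motile cilium genes were lower with an adjusted p under 0.05 in 1 of 32 tested in the CVLM, where 1 was higher, and in 1 of 32 in the RVLM. The medians were -0.06 and 0.06. They cover only the 32 members above the filter of each region, against 67 in the NTS, so they are over different genes. Drc7, Wdr66, Wdr63 and Spag8 were below the filter in both. In the fit of the 3 regions, over 68 members, the median difference was -0.82 (NTS minus CVLM) and -1.3 (NTS minus RVLM). The difference between regions passed for only 2 members in the CVLM comparison and 3 in the RVLM comparison. Cfap206, with the weaker effect in the NTS, was 1 of them in each, so 1 and 2 members were more negative in the NTS.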

How the data were processed

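Per the labels and methods, total RNA from punches of frozen brainstem sections was sequenced, and the authors mapped the reads to rn6 with STAR and estimated expected counts per gene with RSEM, which they deposited. The methods describe a batch adjustment of counts with ComBat_seq, and whether the deposited expected counts precede it is not given in the sources used here. Both strains were mapped to 1 reference genome, and the effect of that on the counts was not tested.

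The expected counts of 46 NTS libraries were rounded (5.02% of values were not whole), genes with a maximal regularized log value of at least 3.5 were kept (13793 of 32883), and libraries were scaled by the trimmed mean of M values. The quasi-likelihood test of edgeR 4.0.16 (R 4.3.3) was fitted to all 10 groups of strain and age, and the 12-wk contrast was adjusted by Benjamini-Hochberg. The fold changes are from that fit. DESeq2 1.42.0 and limma 3.58.1, other filters and scaling, a replicate block, left-out libraries and the 9 libraries alone were the alternatives. Calls required an adjusted p of at most 0.01 and a 2-fold difference, and gene lists were read at 0.05. Counting intervals (95%) and floors (3 counts) cover counting error only. The code was tested on simulated data.

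Replicates are separate rats. The edgeR p-values of the main fit rest on the spread between rats within all 10 groups of strain and age. They do not measure the spread among the 9 rats of 12 wk alone. With only those 9 libraries in the fit, 74 genes were called in place of 167. No 2 libraries of a strain agreed within sampling noise (18 pairs). Deviations from the group mean of rats with the same number correlated at 0.224, 0.118 and 0.343. The block took the number as pairing them, although the labels give no reason for it. No value for rats of different numbers is given, so a pairing is not shown. The genes and lists were chosen with earlier results of these data known. Genes were named by rule, namely the 10 largest rises and falls among called genes with at least 50 mean counts in the higher group and a symbol, the 2 largest of each among clone or locus names, up to 6 called genes per list, up to 4 per transmitter or peptide list at 0.05, and the 3 most abundant markers of neighboring cell types. The tektins, Ddx58 and Isg15 stand outside it, and Capsl and Mlf1 were named for their promoters. Promoters were matched by symbol or identifier for 10539 tested genes. The authors' comparisons were not used, and a few genes are not reported here.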

Additional observations from a re-analysis of the deposited data

Results flagged for a closer look

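In 7 of 114 checks within the 6 SHR libraries (75 named genes and 39 list sums), 1 library stood apart by the ratio of its gap to the nearest library over the range of all 6, and chance gives such a gap in about 1 of 20 groups. SHR replicate 1 was the high library for RT1-A2 (ratio 0.689, 4.08 against 2.75 CPM), S100b (0.669, 1953 against 1581 CPM), Rpl30 (0.678, 71.2 against 40.0 CPM), the summed MHC list (0.731, 847 against 665 CPM) and the summed oxidative phosphorylation list (0.714, 32350 against 22420 CPM). SHR replicate 2 was high for Kcnip3 (0.628, 17.04 against 12.5 CPM) and Htr1a (0.755, 13.1 against 9.49 CPM).

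The strain effect differed between regions, by the test of the difference itself, for several named genes. Against the CVLM, the effect in the NTS was -7.16 for Sostdc1, 3.06 for Cfap206 and -3.64 for Igfbp5 on the log2 scale. Against the RVLM it was -12.01 for Ttr, -9.03 for Kcnj13, -6.15 for Steap1 and -3.47 for Clic6, all choroid plexus genes, -2.93 for Dynlrb2 and 2.71 for Cfap206. It was -2.69 for Igfbp5, -2.18 for Serping1, -1.35 for C1s and -1.08 for C1r. Ttr, Kcnj13 and Steap1 were below the expression filter in the RVLM and entered that fit through another region. For these genes little strain difference could be seen in the RVLM, so the test says little about it. For Ttr and Kcnj13, WKY replicate 1 lay within the SHR range in the NTS, whereas for Steap1 all 3 WKY libraries lay above SHR. In the 27 libraries of 12 wk without WKY replicate 2 0 genes passed an adjusted p of 0.05 against the RVLM in edgeR.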

How the results depend on the processing

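The 167 calls and 428 genes at an adjusted p under 0.05 were 86 and 199 with the replicate block, 74 and 167 with the 9 libraries alone, and 69 and 116 without WKY replicates 2 and 3, an alternative chosen after seeing the data. Leaving out 1 library gave 104 to 188 calls and 216 to 522 genes, the lowest without WKY replicate 2. A log2 limit of 2 gave 80 calls, and an adjusted p under 0.05 with the 2-fold limit gave 253. DESeq2, limma, other scaling and other filters stayed within 1.5 times of 167. For 12 wk against the other ages, DESeq2 gave 2 genes and limma 1 in place of 0, and leaving out 1 library gave 0 to 0. For NTS against RVLM, 33 genes became 14 with the 27 libraries of 12 wk and 0 to 15 with 1 library left out from those (8, 4, 3, 3, 2 and 15 without SHR replicates 1, 5, 3, 4, 6 and 2, and 6, 0 and 3 without WKY replicates 1, 2 and 3). For NTS against CVLM, 9 became 3 and then 2 to 6, with 5 without WKY replicate 1. Of 57 named genes with a fold change, 18 kept their side of the threshold under every alternative, 31 lost it with the block and 29 without WKY replicate 2. Kcnj13 reversed, to a log2 fold change of 1.68, without WKY replicates 2 and 3, where 1 WKY library remained and was assumed to vary like the other groups. The cause was not tested. With 3 WKY rats, small differences could not be detected.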

Other observations

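Among 143 called genes placed in the RefSeq gene order, 10 (6.99%) lay in 5 pairs of direct neighbors. Of the pairs described here, C1r and C1s, and Haghl and Ccdc78, were lower together. Nr1i3, a nuclear receptor, and Tomm40l were higher together, and RT1-A2 was lower beside RT1-A1, which was higher. The genes of the Haghl and Nr1i3 pairs overlap, and reads of overlapping genes are not told apart without strand.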
